A study of Mus musculus with 9 samples.

Results

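The secretoglobins are small secreted proteins, and 4 of their genes are described here across mammary tumours and normal mammary glands of the mouse: Scgb1b27, Scgb3a1, Scgb1a1 and Scgb3a2. They are 4 of 22180 genes that a single-symbol probe set measured, and 4 of 23 such secretoglobin genes. The set was chosen by name with results of these same arrays known: the log2 values of Scgb1b27 had shown the highest difference between the tumour groups, so that difference is given below as a description and without a test. The highest-mean probe set stood for each gene.

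The arrays were Affymetrix Mouse Gene 2.0 ST arrays, 1 per mouse, hybridised with RNA from pieces of frozen mammary tissue of female FVB mice. The 3 groups held 3 arrays each: tumours recorded as metastatic from Wnt1+/- mice carrying MMTV-Wnt1, tumours recorded as non-metastatic from mice of the same genotype, and normal glands of littermates labelled Wild-type Wnt1. In MMTV-Wnt1 mice the secreted signalling protein Wnt1 is made under the promoter of the mouse mammary tumour virus, which is active in mammary epithelium and also in other glands, the salivary gland among them. All mice, those with normal glands included, drank 6% sucrose with doxycycline at 200 ug/ml. Tumours were taken once they measured 20 mm. The mice were 281 to 300 days old at collection in the metastatic group and 222 to 354 days in the non-metastatic group, against 533 to 556 days for the normal glands, so age and tumour status cannot be told apart in any comparison with normal gland. Wnt1 itself read 11.20 to 12.04 in the metastatic group and 11.80 to 12.40 in the non-metastatic group, against 5.45 to 5.71 in normal glands. All levels are log2 values, array medians lay between 5.80 and 5.94, and the 30th percentile of an array, used as a floor for low values, lay between 4.83 and 4.95.

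Secretoglobins are made by glands and airway linings and are secreted as disulfide-linked dimers. In the mouse, proteins of the 1b branch are alpha subunits of androgen-binding protein, which join a subunit of the 2b branch and are known from saliva and lacrimal secretions, where they take part in mate recognition. Scgb1a1, also called uteroglobin or CC10, is the major secretion of airway club cells, Scgb3a2 is an airway product as well, and human SCGB3A1 is known as HIN-1, high in normal-1, a gene silenced by promoter methylation in many human breast cancers.

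The upstream sequences are shown for the members of the 1b and 2b branches that the results turn on, each beside a copy of the same branch, and for Scgb3a1. The 250 bases before the annotated start are given 5′ to 3′ on the gene's strand, from RefSeq on GRCm38.p6: Scgb1b27 at chr7:34021231-34021480 (plus strand), its close copy Scgb1b30 at chr7:34095181-34095430 (plus), Scgb2b27 at chr7:34013943-34014192 (minus), its copy Scgb2b26 at chr7:33944986-33945235 (minus) and Scgb3a1 at chr11:49663345-49663594 (plus). Capitals mark matches to TATAAA or to the forkhead core TGTTTNC on either strand.
Scgb1b27: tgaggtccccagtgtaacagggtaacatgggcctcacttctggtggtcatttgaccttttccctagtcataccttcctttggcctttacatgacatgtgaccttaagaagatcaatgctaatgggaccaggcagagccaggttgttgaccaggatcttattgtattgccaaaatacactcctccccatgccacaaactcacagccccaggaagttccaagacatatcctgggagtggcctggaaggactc
Scgb1b30: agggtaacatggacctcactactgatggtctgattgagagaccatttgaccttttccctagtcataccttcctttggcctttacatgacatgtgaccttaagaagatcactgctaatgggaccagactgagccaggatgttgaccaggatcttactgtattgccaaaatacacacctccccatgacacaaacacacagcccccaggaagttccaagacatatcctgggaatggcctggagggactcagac
Scgb2b27: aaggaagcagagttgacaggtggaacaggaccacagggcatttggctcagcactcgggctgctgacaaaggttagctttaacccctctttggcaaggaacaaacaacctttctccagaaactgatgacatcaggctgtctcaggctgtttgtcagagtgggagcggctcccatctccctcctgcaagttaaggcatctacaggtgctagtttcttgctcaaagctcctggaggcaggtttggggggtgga
Scgb2b26: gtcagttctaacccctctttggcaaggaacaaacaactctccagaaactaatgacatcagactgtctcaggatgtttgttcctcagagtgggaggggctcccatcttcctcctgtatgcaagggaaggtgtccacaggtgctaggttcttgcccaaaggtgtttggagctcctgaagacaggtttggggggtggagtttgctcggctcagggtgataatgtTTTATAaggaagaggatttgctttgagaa
Scgb3a1: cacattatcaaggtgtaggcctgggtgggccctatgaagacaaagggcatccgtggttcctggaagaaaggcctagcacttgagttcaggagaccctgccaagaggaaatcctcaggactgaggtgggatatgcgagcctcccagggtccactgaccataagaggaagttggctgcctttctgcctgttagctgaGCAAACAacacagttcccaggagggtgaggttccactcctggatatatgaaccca

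Aligned over these windows, Scgb1b27 and Scgb1b30 shared 219 of 250 bases (87.6%), Scgb2b27 and Scgb2b26 160 of 250 (64.0%), while Scgb1b27 and Scgb3a1 aligned at 20 of 250 (8.0%). End gaps were free and the shares are of the whole window, so an offset between windows lowers them. They do not give the identity of the overlapping part. In the RefSeq gene order Scgb1b27 and Scgb2b27 are direct neighbours on opposite strands, so the alpha subunit gene lies beside a gene of its partner branch. Scgb3a1 held the forkhead core, on the minus strand from base -55, and TATAAA was found, on the minus strand from base -29, in Scgb2b26. In the 50 bases after the annotated start TATAAA lay at +43 in Scgb1b27, at +39 in Scgb1b30 and, on the minus strand, at +27 in Scgb2b27. Positions count from each gene's own annotated start. The last bases of the Scgb2b27 window recur in Scgb2b26 ahead of its TATAAA match, so these windows are offset. The positions in these copies are therefore not a difference in sequence. TGTTCT, a half-site bound by some steroid hormone receptors, was searched on both strands too and had no match in these 5 windows. Sites of other receptors were not searched. Of 32851 RefSeq windows of 250 bases, 12.4% held TATAAA, 17.8% TGTTTNC and 16.1% TGTTCT. A match is a run of letters and not a measured site.

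Metastatic tumour 2 and normal gland 2 stood apart from others of their label. Values without them, an alternative for the gene lists that was chosen after seeing the data, are given below where a call ended or where a difference larger than its SE moved by over 1.5 times. Metastatic tumour 2 carried markers of salivary and lacrimal gland: of 21 listed genes, 17 had a probe set, 13 of these were highest in metastatic tumour 2, and 11 lay over 1 log2 unit above all 8 other arrays. The mean level of the 17 genes was 6.21, 9.50 and 5.71 in metastatic tumours 1, 2 and 3, against 5.17 to 5.71 in non-metastatic tumours and 5.27 to 5.28 in normal glands. The same array was low for the milk protein and luminal progenitor list, at a mean of 8.06 against 11.53 and 10.30 in metastatic tumours 1 and 3. Normal gland 2 had the highest value of all 9 arrays for 11 of 11 skeletal muscle genes and 10 of 11 genes of differentiated epidermis, and its luminal progenitor mean was 8.03 against 10.82 and 10.91 in the other normal glands. The non-metastatic arrays varied too. Non-metastatic tumour 1 had 11 tested genes over 3 log2 units above all other arrays, against 13 in metastatic tumour 2 and 20 in normal gland 2. Non-metastatic tumour 3 correlated with its group at 0.941 to 0.944, metastatic tumour 2 at 0.952 to 0.956.

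Scgb1b27 (probe set 17476673) was high in metastatic tumours and near the floor elsewhere. It read 10.40, 13.05 and 7.24 in metastatic tumours 1, 2 and 3, against 4.89, 5.09 and 4.55 in non-metastatic tumours and 5.16, 4.64 and 5.15 in normal glands. All 3 metastatic tumours stood above all 6 other arrays, and the 3 differed from each other by up to 5.81 log2 units. Within its own array the gene lay at the 95.9, 99.8 and 69.9 percentile of all probe sets in metastatic tumours 1, 2 and 3, against percentiles of 25.0 to 34.2 in non-metastatic tumours and 25.2 to 34.7 in normal glands. As the arrays measured bulk tissue, fewer cells of a type and less RNA per cell cannot be told apart here or below.

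Between the tumour groups Scgb1b27 averaged 10.23 ± 2.91 in metastatic and 4.84 ± 0.27 in non-metastatic tumours (SD, n = 3 each), a difference of 5.38 (moderated SE 1.19), the highest of 17478 genes tested. Without metastatic tumour 2 the difference was 3.97 (SE 0.79). Of the 2 members that passed the filter on low values, 0 were called between the tumour groups in limma and 1 had an unadjusted p under 0.05, beside 0.00572% of all genes called and 886 with such an unadjusted p. The groups did not overlap for 1 of these 2 members and for 10.3% of all genes. The difference chose the set, so nothing is read from these counts.

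Against normal gland, at 4.99 ± 0.30 (SD, n = 3), Scgb1b27 rose in metastatic tumours by 5.24 (SE 1.19, limma, adjusted p = 0.0293), higher in 3 of 3 tumours than in any normal gland. It was the 1 of 2 tested members called, where 13.3% of all genes were called (7.35% higher and 6% lower) and 38.5% had groups without overlap. These are the arrays on which the gene was chosen, so the p is no independent support. The call held without metastatic tumour 2 (3.83, SE 0.79, adjusted p = 0.0391) and was lost without metastatic tumour 1 (adjusted p = 0.0887), without normal gland 1 (0.0788), without normal gland 2 (0.0874) and with only the 6 arrays compared in the fit (0.0595). Non-metastatic tumours differed from normal gland by -0.14 (SE 1.19, adjusted p = 0.949), with overlapping groups. In that comparison 0 of 2 members were called in limma and 0 had an unadjusted p under 0.05, beside 18.8% of all genes called (11.2% higher and 7.6% lower) and 36.2% without overlap.

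**Figure D1:**
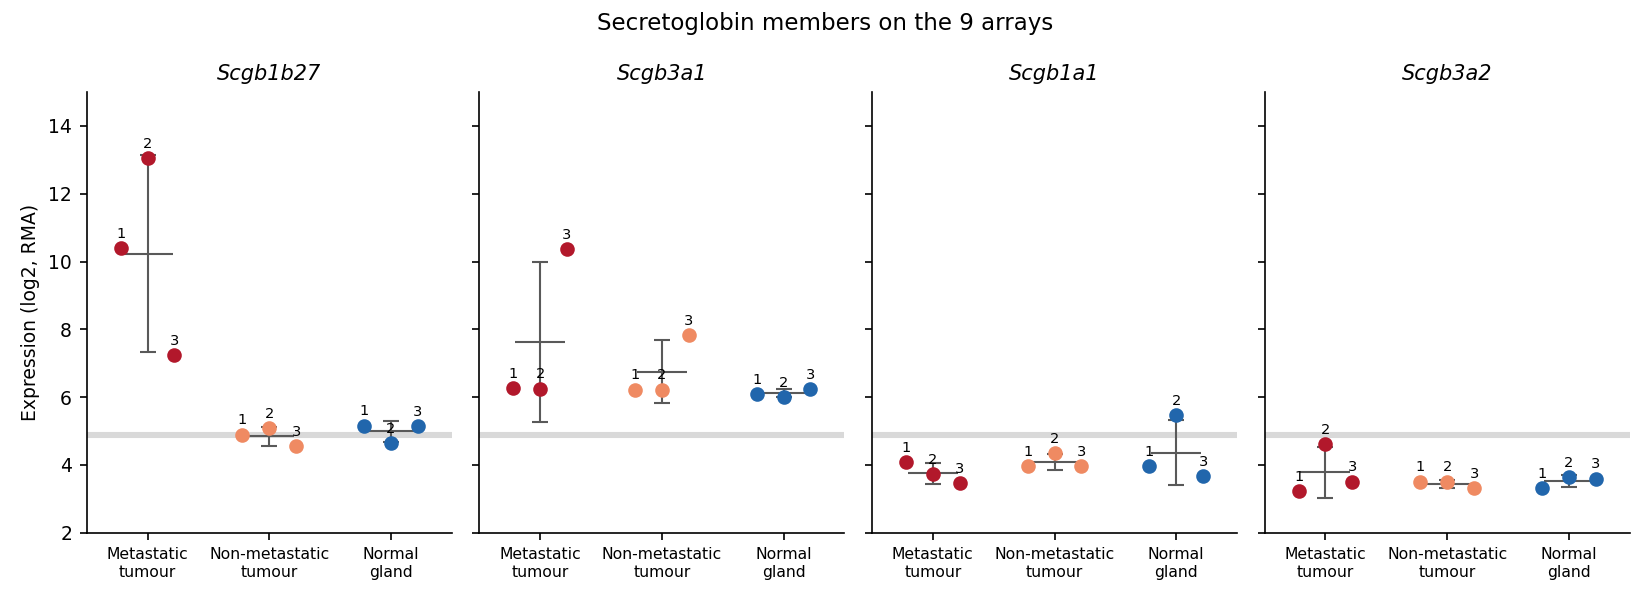
Log2 level of the 4 secretoglobin genes on each array, by group (metastatic and non-metastatic tumours, normal glands), with points numbered by replicate, bars at the mean ± SD (n = 3) and a grey band for the range over arrays of the 30th percentile (4.83 to 4.95). Scgb1b27 was high in 3 of 3 metastatic tumours, Scgb3a1 was high in metastatic tumour 3 and, less so, in non-metastatic tumour 3, and Scgb1a1 and Scgb3a2 lay mostly below the band.

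The gene next to it encodes a partner subunit. Scgb2b27 (probe set 17489571) read 9.62, 13.35 and 5.91 in metastatic tumours and 7.17, 7.86 and 4.29 in non-metastatic tumours, against 3.59, 3.17 and 3.81 in normal glands. Unlike for Scgb1b27, the tumour groups overlapped, and all 6 tumours stood above all normal glands. The difference was 3.19 (SE 1.70) between metastatic and non-metastatic tumours, 1.32 without metastatic tumour 2.

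All 3 normal glands lay below the floor for Scgb2b27, at percentiles of 8.0 to 13.2 of their arrays. The gene passed the filter through tumours alone, so its p-values against normal gland are no independent support. It differed from normal gland by 6.10 in metastatic tumours (SE 1.70, adjusted p = 0.0504), which was not called, and by 2.92 in non-metastatic tumours (SE 1.70, adjusted p = 0.266). Without metastatic tumour 2 the first of these was 4.24 (adjusted p = 0.0915), and under 6 of 18 alternatives its adjusted p fell below 0.05, the lowest being 0.0171 with array weights. Those weights were 7.497 for normal gland 1 and 0.443 and 0.485 for normal glands 2 and 3, so that fit leaned on 1 normal gland. Across the tumours Scgb2b27 had the same order within the metastatic group as Scgb1b27, with tumour 2 highest and tumour 3 lowest, while non-metastatic tumours 1 and 2 were high for Scgb2b27 alone.

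Another 2b subunit gene, Scgb2b7 (probe set 17489503), read 6.63, 11.33 and 4.71 in metastatic tumours and 4.94, 5.69 and 4.41 in non-metastatic tumours, against 3.79, 4.56 and 3.97 in normal glands. It differed by 2.54 (SE 1.41) between the tumour groups and by 3.45 (SE 1.41, adjusted p = 0.143) between metastatic tumours and normal gland. Without metastatic tumour 2 these differences of Scgb2b7 were 0.66 (SE 0.60) and 1.56 (SE 0.60, adjusted p = 0.149). Scgb2b7 too lay below the floor in all normal glands and passed the filter through tumours alone. Probe sets 17489524 and 17489529, which name both Scgb2b20 and Scgb2b7, were not tested. Each read 4.72, 6.13 and 4.51 in metastatic tumours and 4.37 to 4.75 in non-metastatic tumours, against 4.35 to 4.55 in normal glands. By these probe sets the metastatic tumours did not all stand above the normal glands. Scgb2b26 did not pass the filter: it read 13.22 in metastatic tumour 2, against 2.66 to 4.09 on the 8 other arrays. So 1 array carried all of its signal above the floor. Scgb1b30, the near copy of Scgb1b27, stayed between 3.54 and 4.24 on all 9 arrays, below the floor.

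The 1b and 2b branches are multigene families, and whether a probe set also bound transcripts of other copies was not tested, so the split of signal among copies is uncertain. Scgb1b3 had 2 probe sets. By neither did the metastatic tumours separate from the normal glands: the brighter read 8.08, 9.49 and 9.10 in metastatic tumours and 8.01 to 8.67 in non-metastatic tumours, against 8.87 to 9.10 in normal glands.

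Of the 19 other secretoglobin genes, 13 lay at or below the 30th percentile of every array, with levels of 1.34 to 4.45. The 5 that passed the filter were Scgb2b27, Scgb2b7, Scgb1b3, Scgb1c1 and Scgb1b20, the first 2 of them through tumours alone. Of these 5, 0 were called in any of the 3 comparisons, and an unadjusted p under 0.05 was reached by 0 between the tumour groups, 0 between non-metastatic tumours and normal gland and 2 between metastatic tumours and normal gland. Over all genes tested, an unadjusted p under 0.05 was reached by 5.07%, 34.4% and 30.5% in these 3 comparisons, and the counts of such p-values below are to be read against these shares. Scgb1b20 lay at 4.86, 5.33 and 4.94 in metastatic tumours, against 4.65 to 4.86 in non-metastatic tumours and 4.80 to 4.92 in normal glands, a difference of 0.27 (SE 0.14) between the tumour groups, or 0.13 without metastatic tumour 2. Scgb1c1 differed by 0.13 (SE 0.46) between the tumour groups. Of the 6 genes that lay above the floor on any array, 5 had their highest value in metastatic tumour 2.

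**Figure D2:**
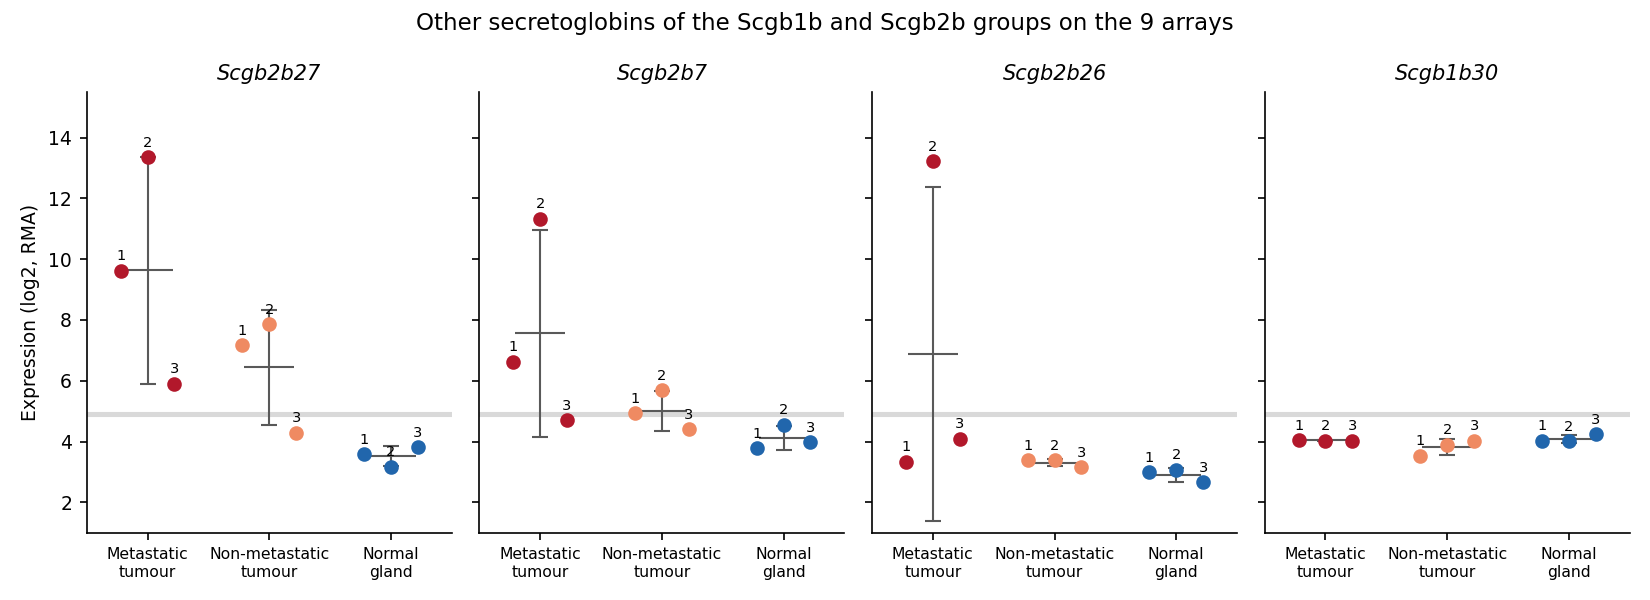
Log2 level of secretoglobin genes outside the set of 4 on each array, by group, with points numbered by replicate, bars at the mean ± SD (n = 3) and a grey band for the range over arrays of the 30th percentile. Scgb2b27 was above all normal glands in all 6 tumours, and Scgb2b26 was above the band in metastatic tumour 2 alone, at 13.22.

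The salivary and lacrimal markers were set beside Scgb1b27 because androgen-binding protein is a salivary product. Metastatic tumour 2, where Scgb1b27 was highest, read 11.84 for Bpifa2, 13.49 for Klk1, 12.95 for Pip and 13.33 for Prol1, genes of salivary or lacrimal secretions that were named here after their values had been seen. Metastatic tumour 1, where Scgb1b27 was at 10.40, read 4.64 for Bpifa2, 4.32 for Klk1, 4.70 for Prol1 and 5.32 for Pip. Pip thus lay above the 30th percentile of that array, 4.83, and Bpifa2, Klk1 and Prol1 lay below it. These genes were picked by their values and do not stand for the whole list. In metastatic tumour 1, 7 of the 17 listed genes lay at or below the 30th percentile, against 1 in metastatic tumour 2 and 8 in metastatic tumour 3.

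Some other genes of the list were high in metastatic tumour 1 as well. Dcpp1, a salivary protein of the demilune and parotid type, read 8.92, 13.14 and 6.30 in metastatic tumours and 4.98, 6.15 and 5.77 in non-metastatic tumours, against 4.70, 5.59 and 5.61 in normal glands. The metastatic tumours stood above the rest, by 0.15 log2 units at the closest. Dcpp1 differed by 3.82 (SE 1.43) and Dcpp2 by 3.73 (SE 1.64) between the tumour groups, and without metastatic tumour 2 by 1.98 (SE 0.74) and 1.45 (SE 0.44). Car6, a secreted carbonic anhydrase of saliva, read 10.05, 12.30 and 6.49 in metastatic tumours and 9.38, 9.53 and 5.72 in non-metastatic tumours, against 7.23, 6.33 and 7.58 in normal glands. Its groups overlapped, with tumours 1 and 2 of each tumour group above the normal glands. Amy1, the salivary amylase gene, moved the other way: it fell by 2.75 in metastatic tumours (SE 0.24, adjusted p = 0.00111) and by 2.68 in non-metastatic tumours (SE 0.24, adjusted p = 0.00118) against normal gland.

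Over the list's 10 tested genes, 0 were called between the tumour groups and 1 had an unadjusted p under 0.05. Their median difference was 0.84, and 0.33 without metastatic tumour 2, where the median of all genes was -0.02. Against normal gland Amy1 was the 1 gene called, in either tumour group. The part that these markers' cells had in the level of Scgb1b27 was not tested.

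**Figure D3:**
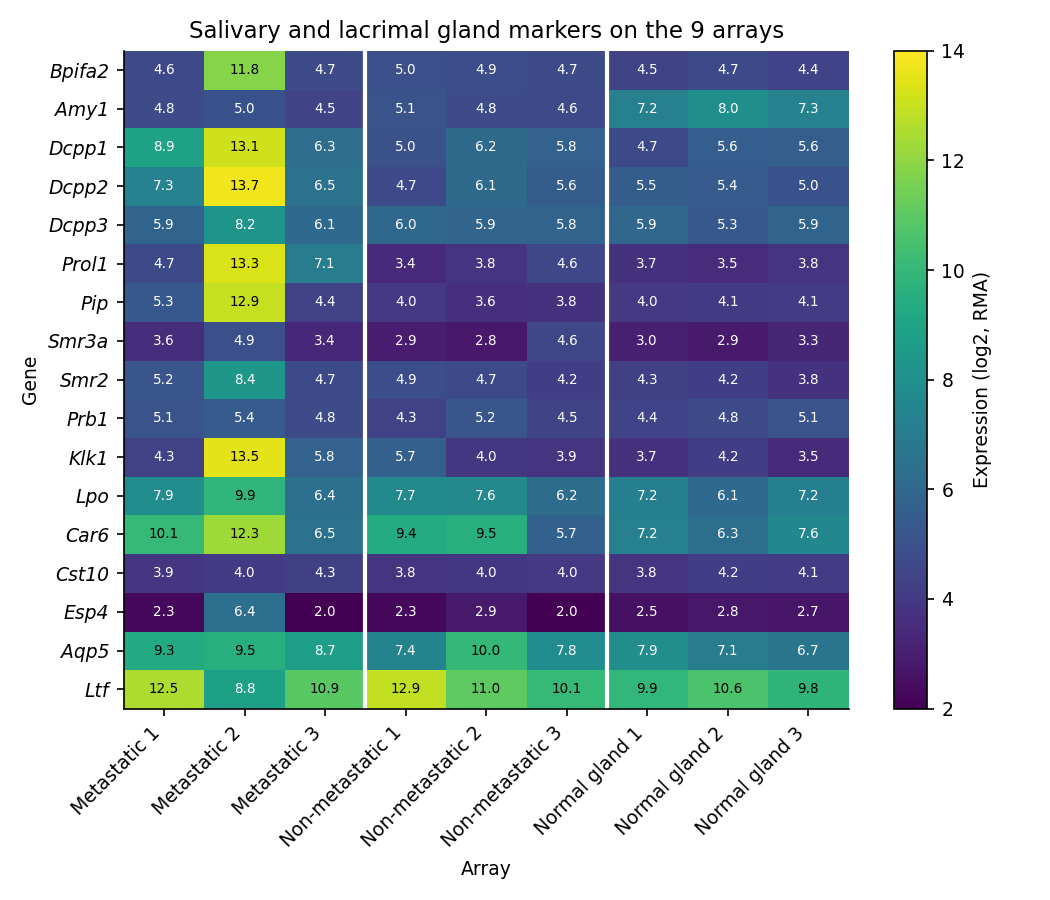
Log2 level of the 17 salivary and lacrimal gland genes that had a probe set, on the 9 arrays, as a colour scale. Metastatic tumour 2 was highest of all arrays for 13 of the 17, while metastatic tumours 1 and 3 were high for a few of them.

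Scgb3a1 (probe set 17249028) followed another pattern. It read 6.27, 6.25 and 10.36 in metastatic tumours and 6.22, 6.22 and 7.82 in non-metastatic tumours, against 6.09, 6.00 and 6.23 in normal glands. It was high in 1 tumour of each group, metastatic tumour 3 and non-metastatic tumour 3, and the other 7 arrays lay within 0.27 log2 units of each other. All 9 values were above the floor. The array with the highest Scgb3a1 had the lowest Scgb1b27 of the metastatic group.

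Scgb3a1 averaged 7.63 ± 2.37 over the metastatic and 6.75 ± 0.93 over the non-metastatic tumours, against 6.11 ± 0.12 over the normal glands (SD, n = 3 per group). The difference between metastatic and non-metastatic tumours, 0.88 (SE 1.03), was smaller than its error and turned to -0.49 without metastatic tumour 3. Metastatic tumours differed from normal gland by 1.52 (SE 1.03, adjusted p = 0.359), 0.16 without metastatic tumour 3, and non-metastatic tumours by 0.65 (SE 1.03, adjusted p = 0.704), 0.11 without non-metastatic tumour 3. The metastatic and normal groups did not overlap, by a margin of 0.02.

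**Figure D4:**
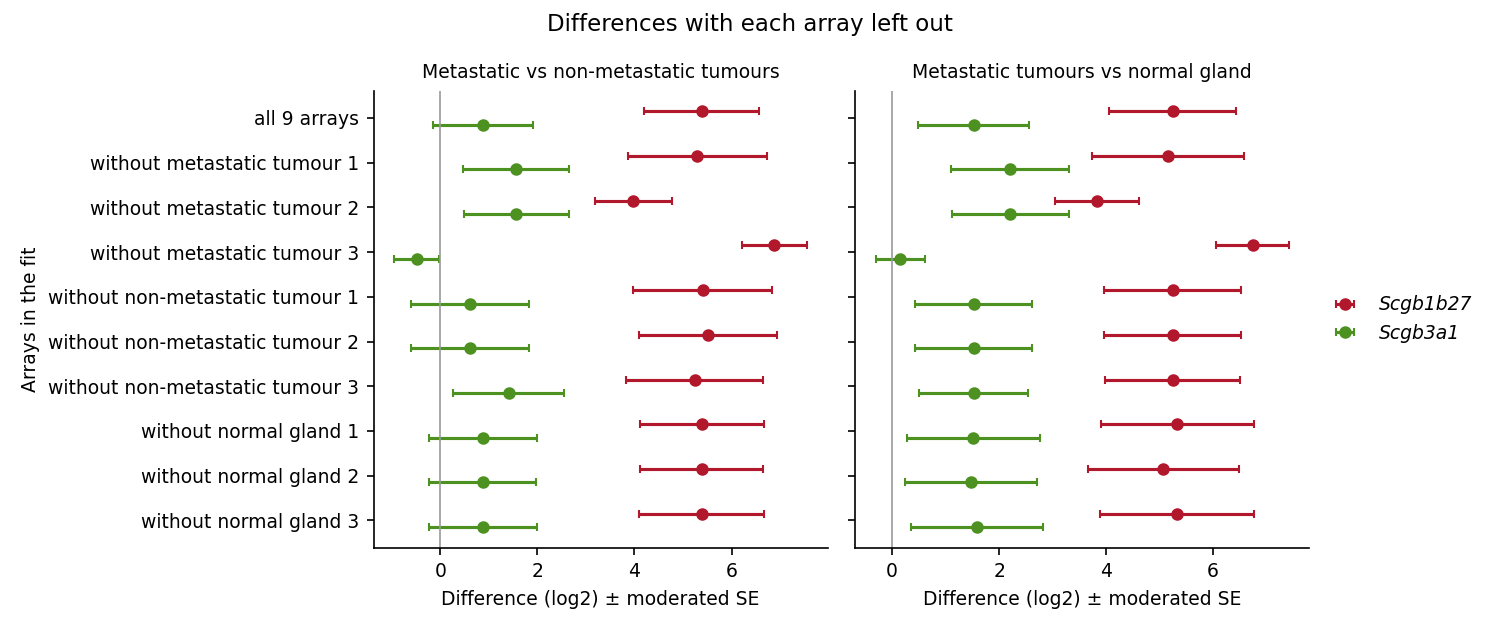
Difference of group means (log2, ± moderated SE) for Scgb1b27 and Scgb3a1 in the fit of all 9 arrays and with each array left out in turn, for metastatic against non-metastatic tumours and for metastatic tumours against normal gland. Scgb1b27 stayed between 3.97 and 6.88 in the first comparison and between 3.83 and 6.74 in the second, while Scgb3a1 ranged from -0.49 to 1.57 and from 0.16 to 2.21.

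Both airway members were close to the bottom of the arrays and did not pass the filter. Scgb1a1 (probe set 17362539) read 4.08, 3.72 and 3.46 in metastatic tumours and 3.96, 4.35 and 3.96 in non-metastatic tumours, against 3.96, 5.46 and 3.66 in normal glands. Only normal gland 2, the array with muscle and epidermal markers, was above the floor. The differences of means were -0.33 between the tumour groups, -0.61 between metastatic tumours and normal gland and -0.27 between non-metastatic tumours and normal gland, and without normal gland 2 the comparisons with normal gland gave -0.06 and 0.28.

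Scgb3a2 (probe set 17350196) read 3.22, 4.61 and 3.50 in metastatic tumours and 3.50, 3.50 and 3.31 in non-metastatic tumours, against 3.32, 3.64 and 3.60 in normal glands. No array was above its floor, and the highest value again came from metastatic tumour 2. The difference was 0.34 between the tumour groups, -0.08 without metastatic tumour 2. It was 0.26 between metastatic tumours and normal gland and -0.08 between non-metastatic tumours and normal gland. Values this low bound the level on these arrays and do not show that the transcript was absent.

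Genes that mark the usual sources of the airway members were measured too. Among the lung alveolar genes, 0 of 9 tested were called in any comparison, and Nkx2-1, the transcription factor of lung that drives secretoglobin promoters there, lay between 4.78 and 4.98 on all 9 arrays. Unadjusted p-values under 0.05 numbered 0 between the tumour groups and 2 in each comparison with normal gland. The median difference of these 9 genes between the tumour groups was -0.02, with 4 of them positive. Without normal gland 2, Sftpd differed by -1.17 (SE 0.93) between the tumour groups and Slc34a2 by -1.23 (SE 0.92) between metastatic tumours and normal gland. Of the club cell list, 10 genes were tested, and the median difference between the tumour groups was 1.08, with 0 called and 5 with an unadjusted p under 0.05. The sign was positive for 10 of 10 genes, though the difference was 0.07 for Muc5b and 0.00 to 2 decimals for Foxj1.

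Against normal gland some club cell genes moved in opposite directions. Gabrp, a GABA receptor subunit, rose by 2.96 in metastatic tumours (SE 0.35, adjusted p = 0.00387) and by 1.73 in non-metastatic tumours (SE 0.35, adjusted p = 0.0156). Chad, which encodes the matrix protein chondroadherin, rose by 4.08 in metastatic tumours (SE 0.66, adjusted p = 0.011). Aldh1a7, an aldehyde dehydrogenase, fell by 3.54 in metastatic tumours (SE 0.61, adjusted p = 0.0134) and by 3.88 in non-metastatic tumours (SE 0.61, adjusted p = 0.00856). Fmo2 and Cbr2, which encode a monooxygenase and a carbonyl reductase, fell in non-metastatic tumours by 1.81 (SE 0.42, adjusted p = 0.0242) and 1.65 (SE 0.32, adjusted p = 0.0145), though Fmo2 was not called without normal gland 2 (adjusted p = 0.0796). In all, 2 of the 10 rose and 1 fell in metastatic tumours, where 7.35% of all genes were higher and 6% lower, and 1 rose and 3 fell in non-metastatic tumours, where 11.2% of all genes were higher and 7.6% lower.

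Regulators known to act on secretoglobin promoters in airway or gland were taken as a list of 20, of which 18 were tested. Foxa1, a forkhead factor of hormone-sensing luminal cells, read 8.47, 9.91 and 10.64 in metastatic tumours and 6.47, 5.42 and 8.04 in non-metastatic tumours, against 9.57, 8.86 and 7.99 in normal glands. The metastatic tumours stood above the non-metastatic tumours and overlapped the normal glands, and the highest Foxa1 was in metastatic tumour 3, which had the highest Scgb3a1 and the lowest Scgb1b27 of its group. The difference was 3.03 (SE 0.77) between the tumour groups, which did not pass the test, -2.17 (SE 0.77, adjusted p = 0.0855) between non-metastatic tumours and normal gland and 0.86 (SE 0.77, adjusted p = 0.49) between metastatic tumours and normal gland.

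The steroid receptors were not alike. Pgr, the progesterone receptor, differed by 1.78 (SE 0.57) between the tumour groups without overlap, at 7.33, 7.21 and 8.66 in metastatic tumours against 5.60, 5.21 and 7.04 in non-metastatic tumours. Esr1, the oestrogen receptor, differed by -0.12 (SE 0.65), or 0.51 (SE 0.57) without metastatic tumour 2. Neither passed the test.

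Between the tumour groups 0 of the 18 regulators were called and 2 had an unadjusted p under 0.05, with a median difference of -0.08. Against normal gland, 2 rose and 4 fell in each tumour group, of 18. Of all genes, 7.35% rose and 6% fell in metastatic tumours, and 11.2% rose and 7.6% fell in non-metastatic tumours. Without normal gland 2, 1 regulator rose and 2 fell in each tumour group. In that fit 4.82% of all genes were called in metastatic and 8.54% in non-metastatic tumours. Without metastatic tumour 2, 0 regulators rose and 2 fell in metastatic tumours, where 6.21% of all genes were called. Elf3, an epithelial ETS factor, rose by 1.72 in metastatic tumours (SE 0.35, adjusted p = 0.0213, or 0.0604 without metastatic tumour 2) and by 1.81 in non-metastatic tumours (SE 0.35, adjusted p = 0.0138). Gata6 fell by 2.38 and 1.64 (SE 0.33 each, adjusted p = 0.00701 and 0.0154) in metastatic and non-metastatic tumours. Cebpa, a factor of fat and airway cells, fell by 2.10 and 1.82 (SE 0.29 each, adjusted p = 0.00688 and 0.00861), and Hoxa5 by 1.78 and 1.51 (SE 0.41 each, adjusted p = 0.0314 and 0.0394) in the same order of groups. Hoxa5 was not called in metastatic or non-metastatic tumours without metastatic tumour 2 (adjusted p = 0.0857 and 0.0521) or without normal gland 2 (adjusted p = 0.0541 and 0.0716). Beside these falls, 10 of 10 tested adipocyte genes fell in each tumour group, where 6% and 7.6% of all genes fell in metastatic and non-metastatic tumours. Lep fell by 5.93 in metastatic tumours (SE 0.52, adjusted p = 0.00127) and by 5.95 in non-metastatic tumours (SE 0.52, adjusted p = 0.00118). The part of fat loss in the regulators' values was not tested.

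Of 12 listed genes for proteins that bind secretoglobins or take them up, 7 were tested and 0 were called in any comparison, with 0, 2 and 2 unadjusted p-values under 0.05 between the tumour groups, between non-metastatic tumours and normal gland and between metastatic tumours and normal gland. Marco, a scavenger receptor that binds Scgb3a2 protein, lay between 5.65 and 6.27 in all tumours and at 7.61 in normal gland 2. Without normal gland 2, Marco differed from normal gland by -0.18 (SE 0.19) in metastatic and -0.17 (SE 0.19) in non-metastatic tumours. In that fit Fn1 differed from normal gland by -2.15 (SE 0.66) in metastatic and -2.06 (SE 0.66) in non-metastatic tumours. Sdc1 went the other way there, by 0.96 (SE 0.30) and 1.00 (SE 0.30), and neither was called. Between the tumour groups Fn1 differed by -0.08 (SE 0.59) in the same fit. Sdc1, a heparan sulfate proteoglycan of epithelium, differed by -0.04 (SE 0.29) between the tumour groups. Lmbr1l, which is named as a lipocalin-interacting receptor and has been linked to uteroglobin, differed by 0.03 (SE 0.12).

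Lists of mammary cell types were read beside Scgb1b27. Hormone-sensing luminal genes, 12 tested, had a median difference of -0.03 between the tumour groups, and 0.41 without metastatic tumour 2. Luminal progenitor and alveolar genes, 15 tested, had a median of -0.84, and 0.11 without metastatic tumour 2. Basal and myoepithelial genes had a median of 1.33, with 9 of 9 higher in metastatic tumours, led by Cnn1 (2.76, SE 0.79) and Myh11 (2.59, SE 0.48), genes of contractile cells. None of these 3 lists had a gene called between the tumour groups, and 3, 0 and 5 genes had an unadjusted p under 0.05.

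Against normal gland 2 of the 36 tested genes of these lists were called in metastatic tumours, where 13.3% of all genes were, and 4 of 36 in non-metastatic tumours, where 18.8% of all genes were. Prom1, a luminal surface protein, rose by 2.39 in metastatic tumours (SE 0.39, adjusted p = 0.011) and by 2.65 in non-metastatic tumours (SE 0.39, adjusted p = 0.0068). Kit, the receptor that marks luminal progenitors, rose by 1.72 (SE 0.34, adjusted p = 0.0202, or 0.0585 without metastatic tumour 2) and 1.54 (SE 0.34, adjusted p = 0.0206) in metastatic and non-metastatic tumours. In non-metastatic tumours Wnt4, a target of progesterone, fell by 1.17 (SE 0.22, adjusted p = 0.0136) and Myh11 by 2.19 (SE 0.48, adjusted p = 0.0192). Of 20 tested genes of mucous secretory cells, 0 were called in any comparison, with 0, 2 and 1 unadjusted p-values under 0.05 between the tumour groups, between non-metastatic tumours and normal gland and between metastatic tumours and normal gland. The skeletal muscle list (11 tested) and the epidermis list (10 tested), both high in normal gland 2, also had 0 genes called and 0 with an unadjusted p under 0.05 in all 3 comparisons.

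**Figure D5:**
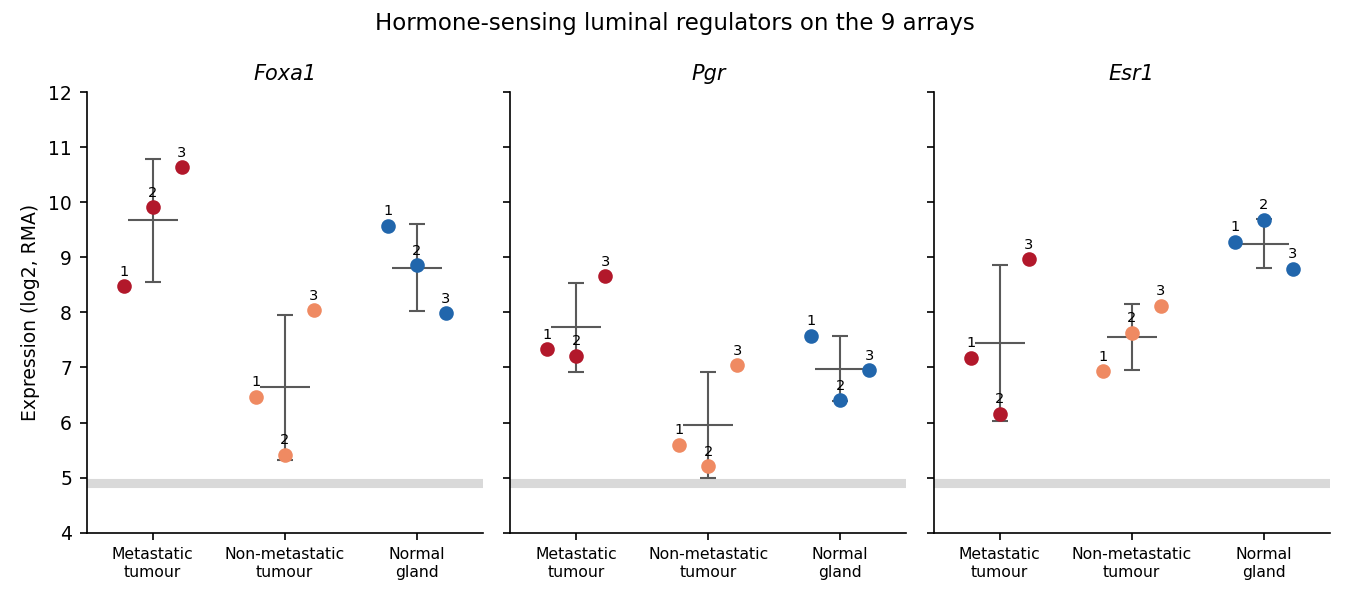
Log2 level of hormone-sensing luminal genes on each array, by group, with points numbered by replicate and bars at the mean ± SD (n = 3). Foxa1 was higher in all 3 metastatic tumours, at 8.47 to 10.64, than in the non-metastatic tumours, at 5.42 to 8.04, and overlapped the normal glands.

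The genes whose profile over the 9 arrays was most like that of Scgb1b27 were ranked by Pearson's r, as a description of 9 points that share the same arrays, with metastatic tumour 2 far from the rest. Spock3, an extracellular proteoglycan gene, had the highest r at 0.99, and 0.98 over 8 arrays without metastatic tumour 2. It read 6.30, 6.85 and 5.31 in metastatic tumours, against 4.68 to 4.92 in non-metastatic tumours and 4.76 to 4.91 in normal glands. It thus had the same order of metastatic tumours as Scgb1b27, over a much smaller range.

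Wfdc2, a secreted protein of epithelia with a whey acidic protein domain, came next with r = 0.96, and 0.91 without metastatic tumour 2. It read 8.55, 9.48 and 7.66 in metastatic tumours, against 6.30 to 6.88 in non-metastatic tumours and 6.42 to 7.35 in normal glands. Dcpp1 had r = 0.96, and Tex15, the chemokine gene Cxcl17 and Arl15 had 0.95 each; without metastatic tumour 2 these 4 had r of 0.87 to 0.91. The lowest r belonged to Retreg3 (-0.94), Mir5108 (-0.92) and Rab24 (-0.90).

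Among secretoglobins, r with Scgb1b27 was 0.90 for Scgb2b7 and 0.87 for Scgb2b27, and 0.72 and 0.69 without metastatic tumour 2. Foxa1 had r = 0.45 with Scgb1b27. Scgb3a1 had an r with Scgb1b27 of 0 to 2 decimals, and 0.19 without metastatic tumour 2. The genes most like Scgb3a1 were Pwwp3b (r = 0.98), Rasgef1c (0.94) and Prag1 (0.93), whose profiles follow the same high arrays.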

How the data were processed

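RNA of 9 mammary samples was measured on 1 array each. The deposited table holds log2 values for 41345 probe sets, made by the authors with RMA, per the submitters' processing notes; RMA subtracts background, gives all arrays 1 common distribution of probe values and combines the probes of each set. Version of RMA, level of the probe sets and genome build are not given in the sources used here, and the number of arrays, which have no read depth, limits the precision.

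Of 25335 annotated probe sets, 23521 had 1 gene symbol, 1814 had several and were left out, and 16010 more were not listed; the annotation is GEO's platform table. The probe set with the highest mean stood for each of 22180 genes (1082 had several). Genes above the 30th percentile of their array on at least 3 arrays were tested, 17478 in all, and 4702 were removed. Groups came from the sample titles, which call the samples biological replicates. limma 3.58.1 (R 4.3.3) fitted 1 mean per group over 9 arrays with 6 residual degrees of freedom. All p-values are two-sided, with Benjamini-Hochberg adjustment across the tested genes, and a gene was called at an adjusted p under 0.05, whatever its size of change; an SE is limma's moderated SE. When tested on simulated data with 17478 genes, the fit found 57% of planted log2 changes of 1 and 86% of those of 2 between the tumour groups, 56% of those of 1 and 87% of those of 2 between non-metastatic tumours and normal gland, and 88% of those of 2 and 95% of those of 4 between metastatic tumours and normal gland. The simulated noise was independent, with 1 spread per gene in all groups. Groups of unequal spread and arrays that stand apart, as seen here, were not simulated, so these shares may not hold for the real arrays.

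The members and gene lists were chosen with earlier results of these data known. Named were the 4 members, the other secretoglobins, Foxa1, Esr1, Pgr, Marco, Sdc1 and Lmbr1l, from each list up to 4 genes with the largest change among those called (up to 2 with the largest difference where none was), and the 6 most and 3 least similar genes to Scgb1b27 and 3 most similar to Scgb3a1; Bpifa2, Klk1, Pip, Prol1, Car6, Wnt1 and the Klk1b genes were named after their values were seen. The replicate number was not used as a block, because same-numbered arrays correlated in their deviations from the group means at -0.281 to 0.171, above 0.1 in 2 of 9 pairs. Promoter windows were cut from a RefSeq table on GRCm38.p6 and aligned with Biopython 1.88 (global alignment with free end gaps); Scgb1a1 and Scgb3a2 have none there. Alternatives were other filters, averaged probe sets per gene, quantile normalisation, median centring, a trend with robust moderation, array weights, only the groups compared, the replicate block and each array left out.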

Additional observations from a re-analysis of the deposited data

How the results depend on the processing

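The direction of Scgb1b27 between the tumour groups and between metastatic tumours and normal gland was the same under all 18 alternatives. In the comparison of metastatic tumours with normal gland its difference ranged from 3.83 to 6.74 with an array left out, and its call was lost in 3 of those fits and with only the groups compared (5.24, limma, adjusted p = 0.0595). Its difference between non-metastatic tumours and normal gland, which was never called, ranged from -0.31 to 0.0036 with an array left out, the positive value without non-metastatic tumour 3. Scgb3a1 differed by -0.49 to 1.57 between the tumour groups with an array left out, negative without metastatic tumour 3. Between the tumour groups 1 gene was called, 0 with only the groups compared and 0 to 40 with an array left out (40 without non-metastatic tumour 3). For non-metastatic tumours against normal gland 3288 genes were called (1959 higher, 1329 lower), 5360 with array weights, 1533 with only the groups compared and 1319 to 3688 with an array left out. For metastatic tumours against normal gland 2332 were called (1284 higher, 1048 lower), 6498 with array weights, 1299 with the replicate block and 630 to 2808 with an array left out. The weighted fits leaned on normal gland 1, with a weight of 7.497 against 0.443 to 1.789 on the other arrays. Median centring gave 2900 higher and 1078 lower calls in non-metastatic tumours and 1728 higher and 848 lower in metastatic tumours against normal gland. With the replicate block Scgb1b27 differed by 5.24 between metastatic tumours and normal gland (limma, adjusted p = 0.046), and the block changed no call of a member. The causes were not tested. On simulated data of this size, with 1 spread per gene in all groups, 57% of log2 changes of 1 were found between the tumour groups.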

Other observations

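Glandular kallikreins of the Klk1b cluster, protease genes known from mouse salivary gland, were looked at after their values had been seen. Of 10 such genes, 9 were highest in metastatic tumour 2, and 8 lay over 1 log2 unit above all other arrays there. Their levels were 5.60 to 12.54 in metastatic tumour 2, with a median of 7.48, against 2.58 to 7.98 on the 8 other arrays. Klk1b5 reached 12.54 and Klk1b11 11.51 in that tumour.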
